A study of Mus musculus with 41 samples.

Results

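The comparison described here set the cerebellum of 7 floxed mice against the midbrain of the same 7 animals, so that 14 of the 41 libraries of the series were used. Members were taken by genotype, tissue label and animal number, and no measured value entered their choice. The floxed mice were C57BL/6J animals aged 12 weeks that carried Yy1 alleles flanked by recombination sites, with no Cre named in their genotype label, and each library held polyadenylated RNA from the whole dissected tissue of 1 animal. Males were numbered 1 to 4 and females 5 to 7 in the labels. Both tissues carried the floxed alleles, and no animal with unmodified Yy1 alleles was compared here. The conditional knockout group (cKO), which has GFAP-cre, a transgene that drives Cre from a GFAP promoter, in addition to floxed Yy1, supplied 7 cerebellum and 7 midbrain libraries for a second look at the same regional difference. Those mice were also aged 12 weeks, with males numbered 1 to 4 and females 5 to 7 in the labels. The cKO cerebella also gave a range to set a single floxed library against, and all 19 cKO libraries with a tissue label, 5 of cortex included, gave the range of 2 genes. A set of 6 floxed cortex libraries gave a further level for some genes.

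The cerebellum is built from a few neuron types in a repeated circuit. Granule neurons, the most numerous neurons of the brain, send parallel fibres to Purkinje cells, whose GABAergic axons are the only output of the cerebellar cortex, and Bergmann glia are the astrocyte type that wraps Purkinje dendrites. The midbrain holds dopamine neurons, part of the serotonin neurons and the tectum, and its boundary with the hindbrain is set in the embryo by factors such as Otx2, Gbx2, En1 and En2.

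Sequence around the start sites of some of these marker genes is shown first, since the tissues are told apart by such genes. The set holds 3 Purkinje cell genes, chosen as members of that list with a motif match, and for contrast the granule neuron gene Gabra6 and the dopamine transporter gene Slc6a3, which have none. Each run is the strand of the gene from 250 bases before the transcription start to 50 after it, taken from RefSeq on GRCm38.p6, the patch release of the build the submitters name as mm10. Capitals mark AGGTCA or its reverse complement TGACCT, the half-site that many nuclear receptors bind, among them the product of Rora, a nuclear receptor gene needed for Purkinje cell maturation.
Pcp2, chr8:3625498-3625797, minus strand: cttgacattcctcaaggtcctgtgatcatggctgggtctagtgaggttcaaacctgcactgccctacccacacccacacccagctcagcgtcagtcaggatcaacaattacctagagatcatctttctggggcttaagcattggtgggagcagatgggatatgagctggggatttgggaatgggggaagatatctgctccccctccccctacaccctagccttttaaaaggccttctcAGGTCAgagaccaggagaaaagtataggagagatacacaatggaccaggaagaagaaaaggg
Homer3, chr8:70282749-70283048, plus strand: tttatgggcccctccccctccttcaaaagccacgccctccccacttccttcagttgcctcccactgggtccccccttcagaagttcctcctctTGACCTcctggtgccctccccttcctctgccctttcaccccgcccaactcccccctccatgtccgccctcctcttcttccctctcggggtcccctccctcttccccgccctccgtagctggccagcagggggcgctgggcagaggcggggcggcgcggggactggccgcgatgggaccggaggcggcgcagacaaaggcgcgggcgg
Pcp4, chr16:96467356-96467655, plus strand: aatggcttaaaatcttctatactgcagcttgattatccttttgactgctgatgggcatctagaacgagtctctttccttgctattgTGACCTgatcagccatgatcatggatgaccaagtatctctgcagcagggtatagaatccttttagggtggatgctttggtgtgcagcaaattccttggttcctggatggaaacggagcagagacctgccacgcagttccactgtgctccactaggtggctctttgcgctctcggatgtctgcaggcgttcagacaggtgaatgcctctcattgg
Gabra6, chr11:42321023-42321322, minus strand: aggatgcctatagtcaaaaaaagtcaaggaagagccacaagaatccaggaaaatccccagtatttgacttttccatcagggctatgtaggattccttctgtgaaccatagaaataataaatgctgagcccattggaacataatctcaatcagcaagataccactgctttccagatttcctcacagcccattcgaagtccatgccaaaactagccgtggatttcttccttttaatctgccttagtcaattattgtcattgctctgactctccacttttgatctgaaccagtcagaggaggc
Slc6a3, chr13:73536497-73536796, plus strand: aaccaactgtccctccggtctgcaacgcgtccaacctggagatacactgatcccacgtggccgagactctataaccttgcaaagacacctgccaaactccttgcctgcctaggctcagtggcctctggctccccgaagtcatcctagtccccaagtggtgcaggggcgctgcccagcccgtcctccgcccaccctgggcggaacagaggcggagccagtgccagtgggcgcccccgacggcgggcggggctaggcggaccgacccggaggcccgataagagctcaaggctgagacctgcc
In the Pcp2 window the first base of the motif lay at position -12, counted from the start site. It lay at -157 in Homer3 and at -164 in Pcp4. The letters AGGTCA were found on either strand, and were the only motif searched, in 16% of all 27025 promoter windows. They were found in 12.1% of the 12101 windows of tested genes and in 5 of 13 windows of the Purkinje cell list. Other lists had shares on both sides of that background, with 4 of 21 granule neuron, 1 of 15 dopamine neuron, 5 of 9 Hox and 0 of 12 cortex and hippocampus windows. A match of letters is a description and not a binding site.

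Sequencing depth overlapped between the tissues. The deposited values are normalised reads, and the spacing of the low values gave an estimate of 18.6 to 69.5 M reads behind the cerebellum libraries (median 28.8) and 22.4 to 48.4 M reads behind the midbrain libraries (median 29.2). In pairs, cerebellum minus midbrain was -0.03 on the log2 scale (SD 0.81, n = 7; two-sided exact sign-flip permutation test, p = 0.859). Library totals were lower in cerebellum in all 7 pairs (log2 difference -0.18, SD 0.04, n = 7; exact p = 0.0156, the smallest p that 7 pairs allow). Animals 5, 6 and 7 were labelled female, but only animal 7 carried Xist, the transcript of the inactive X chromosome, at 17251 in its cerebellum and 12258 in its midbrain. The other 12 libraries held at most 22.1. Ddx3y, a gene of the Y chromosome, was at 1019 and 903 in the cerebella of animals 5 and 6 and at 1097 and 1068 in their midbrains. In animal 7 it was at 5.52 and 2.45. Xist and Ddx3y thus went against the female label of animals 5 and 6.

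The tissue labels were checked against markers. Pcp2, Gabra6, Cbln3, Calb1, Car8 and Zic1 marked all 7 cerebellum libraries, and Gdf10 marked 6 of them. The midbrain libraries held the dopamine and serotonin markers Slc6a3, Slc18a2 and Tph2, together with Gata3. Otx2 and Th, also set as midbrain markers, did not mark it: Otx2 was higher in cerebellum and Th was not called, as given below. They also held RNA that textbook anatomy places outside the midbrain. Tbr1, a T-box factor of deep cortical layers, was at 1179 to 2245 (median 2068) in midbrain and at 3078 to 4161 in the 6 cortex libraries, and Hcrt and Pmch, peptides of the lateral hypothalamus, and Hox genes of the hindbrain were present in every midbrain library. Every difference below is against this tissue as dissected, with those genes in it, and midbrain is used for it as the label gives it.

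Libraries of one region were not uniform. In the midbrain libraries of animals 2, 3, 4 and 6, Pcp2, Gabra6, Cbln3 and Fat2 stood at 0.629% to 5.21% of their mean cerebellar level, and in those of animals 1, 5 and 7 at 0.0888% to 0.512%. Among the cerebellum libraries, those of animals 1, 2 and 6 held more of several genes of the other tissue. Nrgn, a postsynaptic gene of forebrain neurons chosen here after its values were seen, was at 1559, 3881 and 3823 in them and at 238 to 517 in the other 4. Slc17a6 was at 529 to 713 in those libraries and at 155 to 223 in the others. What part carried-over tissue had in the sizes given below was not tested. Such genes have wide errors: the standard error of Pcp2 was 0.58, against 0.06 for Pvalb. The cerebellum of animal 6 stood further apart, in glial and immune genes, and is described with and without below.

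Across all genes the regions differed widely. Levels here are normalised reads, given from the lowest to the highest library, and a difference is cerebellum minus midbrain on log2(value + 1), ± SE over 7 pairs. Genes at 10 or more in at least 7 of the 14 libraries were tested, and a gene is called, and said to rise or fall, at a Benjamini-Hochberg adjusted p under 0.05 in limma, a linear model fitted to all genes with the animal as a block. The size for a gene near 0 in one region depends on the 1 added before the log. A gene may stand in more than one list. Of 15546 genes tested, 11127 passed an adjusted p of 0.05 in limma (71.6% of tests), 4388 of them higher in cerebellum (28.2%) and 6739 lower (43.3%). Calls of at least 2-fold numbered 948 rises (6.10% of tests) and 2394 falls (15.4%). At 4-fold or beyond, 308 rises and 1032 falls remained. The split by direction depends on scaling. The median gene stood at -0.10 on the log2 scale as deposited and at 0.08 with libraries scaled to equal totals, where 6442 genes were higher and 4980 lower. With median-ratio scaling the split was 5643 to 5641. At 2-fold or more the counts also moved, to 1254 rises and 1972 falls scaled to totals and to 1103 and 2137 by median ratio. In 6541 genes (42.1%) the lowest library of one region lay above the highest of the other. Without animal 6, 11281 genes passed, 4450 higher and 6831 lower.

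The 12 largest rises were in Pcp2, Gabra6, Sycp1, Cbln3, Fat2, Cnpy1, Crtam, Pkp3, Ppp1r17, Ltbp2, Nrk and Hes3, and the 12 largest falls included Pmch, Crym, Ddn, Slc6a3, Fezf2, Kcnv1, Avp, Dlx1as, Hoxb8 and Cpne7. The rises were from 6.31 to 7.61 and the falls of the genes named from -7.29 to -8.33 on the log2 scale. Several of the rises are not classical cerebellar markers. Sycp1, known for the synaptonemal complex of meiosis, was at 234 to 377 (median 337) in cerebellum and 0 to 9.03 (median 3.15) in midbrain. Crtam, an adhesion receptor known from T cells and natural killer cells, was at 1479.9 to 2033 (median 1710.2) in cerebellum and 5.04 to 57.8 (median 18.0) in midbrain. Pkp3, a plaque protein of desmosomes, was at 493 to 600.4 (median 519.9) in cerebellum and 1.14 to 19.2 (median 3.55) in midbrain. For Crtam and Pkp3, which were picked for the size of their rise, the regions did not overlap, as in 42.1% of all genes tested. Sycp1, and Nrk given next, were picked in the same way but passed the filter on low values through cerebellum alone. The filter thus fixed their direction and their lack of overlap. Ltbp2, a matrix protein, was at 983 to 2544 (median 1552) in cerebellum and 5.71 to 43.3 (median 18.0) in midbrain, and Nrk, a kinase gene, at 225 to 433 (median 353) in cerebellum and 0 to 8.20 (median 3.51) in midbrain. Hes3, a bHLH repressor known from the embryonic boundary between midbrain and hindbrain, was at 1538 to 2493 (median 1984) in cerebellum and 11.2 to 74.3 (median 19.4) in midbrain. Cnpy1, studied in zebrafish as a factor of the midbrain-hindbrain boundary, was at 9139 to 12482 (median 11559) in cerebellum and 56.1 to 266 (median 131) in midbrain. Among the falls, Crym, a thyroid hormone binding protein, was at 1301 to 2014 (median 1936) in midbrain and 2.14 to 16.6 (median 5.63) in cerebellum. Ddn, which encodes the postsynaptic protein dendrin, was at 29181 to 35060.1 (median 33814) in midbrain and 61.4 to 196 (median 134) in cerebellum. Kcnv1, a silent potassium channel subunit, was at 759.8 to 1354 (median 1116) in midbrain and 2.24 to 6.01 (median 4.37) in cerebellum. Falls in genes near 0 in cerebellum, such as Kcnv1, passed the same filter through midbrain alone, so the filter fixed their direction. Dlx1as lies antisense to Dlx1, and without strand its reads cannot be told from those of its partner.

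Granule neuron genes were higher in cerebellum, with 25 of 27 list members called higher, 24 of them at a fold of 2 or more, and the median member at 2.46. Of all genes tested, 28.2% were called higher. Gabra6, the α6 subunit of the GABA-A receptor that granule neurons use, was at 8170.2 to 11965 (median 10557) in cerebellum and 12.4 to 288 (median 91.0) in midbrain. No cerebellum library overlapped a midbrain library, and the difference was 7.07 ± 0.59 (SE, 7 pairs; limma adjusted p = 3.15e-05). Cbln3, a secreted partner of cerebellin 1, was at 25539 to 40883 (median 30171) in cerebellum and 103 to 1589.5 (median 321) in midbrain, a difference of 6.64 ± 0.47. Fat2, an atypical cadherin of parallel fibres, was at 17776 to 22782 (median 21268) in cerebellum and 86.2 to 829.6 (median 207) in midbrain. In all 3 genes the midbrain library of animal 6 was the highest and that of animal 1 the lowest. Genes with firmer midbrain levels gave tighter differences. Cbln1 was 4.19 ± 0.08 higher, Pax6, a transcription factor of granule precursors, 3.04 ± 0.06, and Chn2, a Rac-inactivating protein, 3.62 ± 0.08. The zinc finger genes Zic1 and Zic4, which are deleted together in a human cerebellar malformation, were 3.61 ± 0.14 and 2.46 ± 0.10 higher. Grm4, the presynaptic glutamate receptor of parallel fibres, was at 13265 to 18739 (median 15111) in cerebellum and 1079.5 to 1838 (median 1395) in midbrain.

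The list members that fell were Slc17a7 and Vsnl1. Slc17a7 encodes the vesicular glutamate transporter of granule neurons and of forebrain excitatory neurons. It was at 14886 to 20827 (median 17221) in cerebellum and 20837 to 34305 (median 31218) in midbrain, lower in all 7 pairs (-0.77 ± 0.08; limma adjusted p = 4.24e-06). Vsnl1, a neuronal calcium sensor, was -0.53 ± 0.04. Both are also expressed in cortex and hippocampus, and the midbrain tissue held genes of those regions, whose part in these falls was not tested.

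Purkinje cell genes were higher in 23 of 24 cases (background 28.2%), 21 of them at a fold of 2 or more, with a median of 2.84. The regions did not overlap in 23 of 24, against 42.1% of all genes. Pcp2, a G protein modulator found in Purkinje cells and retinal bipolar cells, was at 10388 to 14325 (median 12877) in cerebellum and 11.0 to 251 (median 78.2) in midbrain, and the difference was 7.61 ± 0.58 (limma adjusted p = 1.99e-05). Ppp1r17, a phosphatase inhibitor of Purkinje cells, was at 4742 to 6785 (median 5754) in cerebellum and 32.2 to 157 (median 54.4) in midbrain. Car8, a protein related to carbonic anhydrases that binds the IP3 receptor, was at 22488 to 48687 (median 39379.6) in cerebellum and 399.9 to 918 (median 512) in midbrain. The 3 genes were low in midbrain but above 0 in every library. Calb1, the calcium buffer calbindin, was at 14521 to 27548 (median 21939) in cerebellum and 2231 to 2771 (median 2484) in midbrain and the difference was 3.06 ± 0.11. Its lowest cerebellum value came from animal 6. Pvalb, another calcium buffer, shared with interneurons, was 2.88 ± 0.06 higher, and Homer3, a postsynaptic scaffold of metabotropic glutamate signalling, 4.10 ± 0.11. Rgs8, which speeds G protein shut-off, was 3.30 ± 0.08 higher, Lhx1, a homeodomain factor, 3.72 ± 0.10, and Gng13, a G protein γ subunit, 2.88 ± 0.08. Foxp2, the forkhead factor of Purkinje cells and of many forebrain neurons, was the list member that fell. It was at 215 to 340.4 (median 273) in cerebellum and 378 to 574 (median 479) in midbrain, with no overlap (-0.79 ± 0.13; limma adjusted p = 0.000258).

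**Figure D1:**
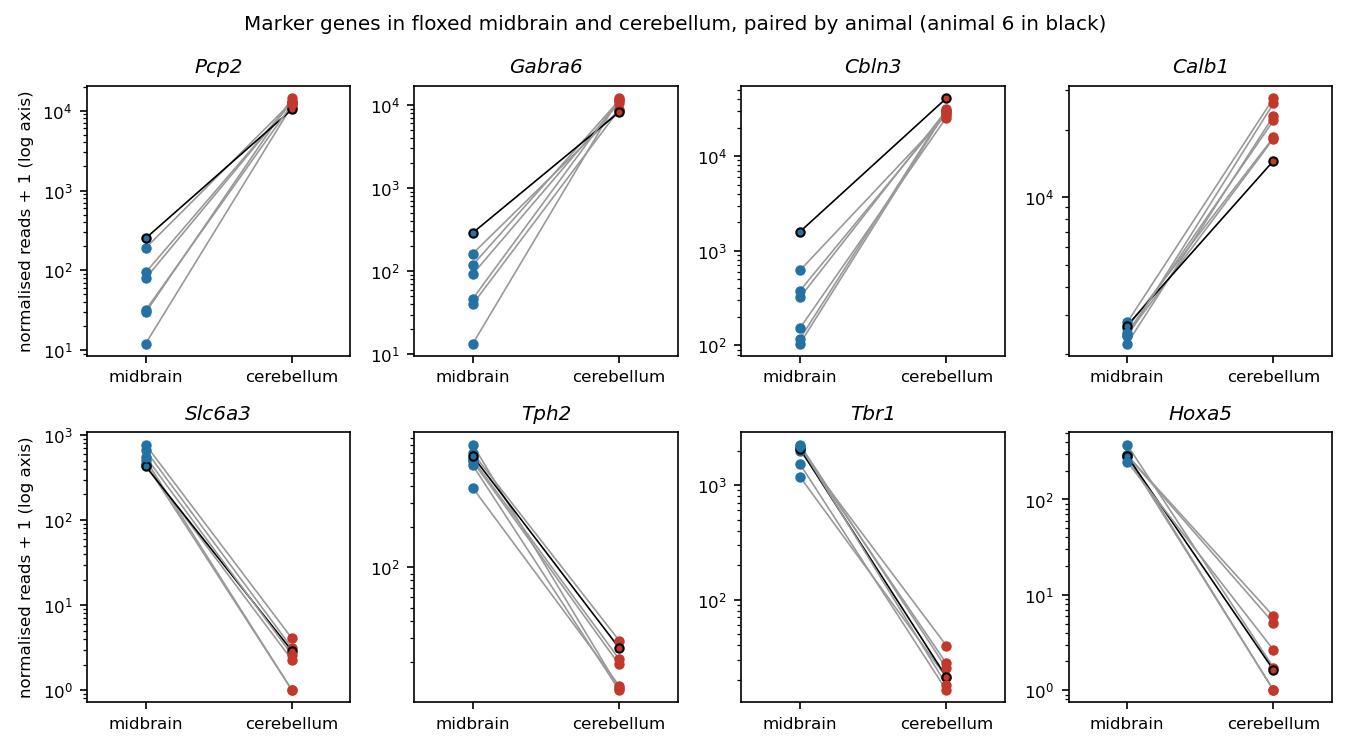
Normalised reads plus 1 (log axis) for 8 genes in the midbrain and cerebellum of each floxed animal; lines join the libraries of 1 animal, and animal 6 is drawn in black. Pcp2, Gabra6, Cbln3 and Calb1 were higher in cerebellum in 7 of 7 animals and Slc6a3, Tph2, Tbr1 and Hoxa5 lower in 7 of 7, while Pcp2 in midbrain was between 11.0 and 251.

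The smaller cerebellar neuron types gave no common direction. Of 11 tested genes of Golgi cells, molecular layer interneurons and unipolar brush cells, 5 were higher, 5 lower and Lypd6 not called, with a median of -0.08. Each direction held 45.5% of the list, against backgrounds of 28.2% higher and 43.3% lower. The genes that rose included Eomes, the T-box factor of unipolar brush cells, at 299.9 to 894 (median 629) in cerebellum and 21.6 to 78.1 (median 35.8) in midbrain. Tfap2a and Tfap2b, factors of inhibitory precursors, were 3.62 ± 0.17 and 2.82 ± 0.16 higher. Kit, the receptor of molecular layer interneurons, was at 1716 to 6449 (median 5833) in cerebellum and 1203 to 1449 (median 1294) in midbrain, and the lowest cerebellum value was again from animal 6. Pax2, a factor of interneuron precursors, was 0.90 ± 0.10 higher. Slc6a5, the glycine transporter of Golgi cells and brainstem neurons, fell by 1.55 and was at 155 to 737 (median 209) in midbrain and 31.0 to 157 (median 101) in cerebellum. The highest midbrain value was from animal 1. Nxph1, Sorcs3 and Grm2 fell (-1.50, -1.15 and -1.02), and Lgi2 (-0.33), the last call being lost with libraries scaled to totals. Lypd6 was at -0.08 ± 0.26, and without animal 6 it was at 0.20 ± 0.08 and passed.

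**Figure D2:**
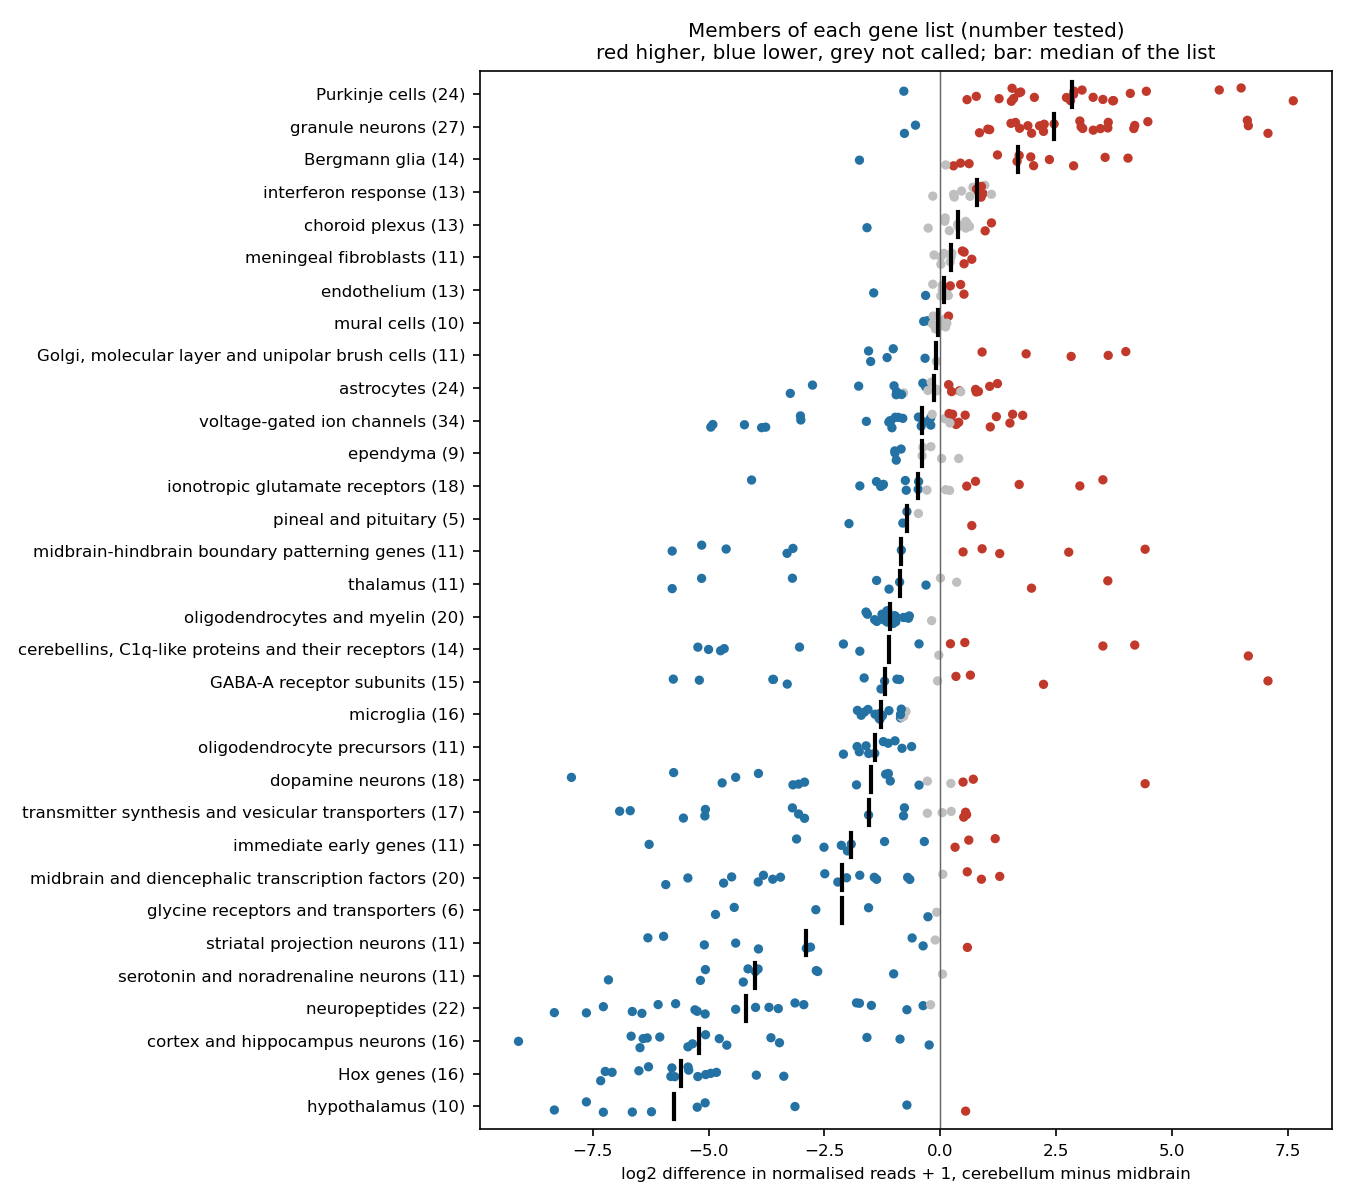
Each point is a tested gene and gives its log2 difference in normalised reads plus 1, cerebellum minus midbrain, in the floxed animals (n = 7 pairs). Genes are grouped by list, with the number tested in brackets, the bar marks the list's median, and colour marks genes called higher (red), lower (blue) or not called (grey); the Purkinje cell list has the highest median (2.84) and the hypothalamus list the lowest (-5.74).

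Monoamine genes were lower in cerebellum. Of 18 tested genes of the dopamine list, 13 were lower (background 43.3%), 12 of them at a fold of 2 or more, and of 11 of the serotonin and noradrenaline list 10 were lower, each by at least 2-fold. Members near 0 in cerebellum, such as Slc6a3, Foxa1 and Slc6a4, passed the filter on low values (10 in at least 7 libraries) through midbrain alone. The filter fixed their direction, so the counts are not counts of the lists. Slc6a3, the plasma membrane dopamine transporter, was at 428 to 768 (median 512) in midbrain and 0 to 3.05 (median 1.61) in cerebellum (difference -7.96 ± 0.23; limma adjusted p = 2.42e-10). Its cerebellum values were near the value of a few reads, so the size of the difference rests on the pseudocount. Slc10a4, a vesicular protein of monoamine and cholinergic neurons, was at 251 to 415 (median 298) in midbrain and 2.11 to 10.8 (median 4.49) in cerebellum. Slc18a2, the vesicular monoamine transporter, and Ddc, the decarboxylase of dopamine and serotonin synthesis, kept levels of 72.9 to 99.0 (median 89.3) and 77.3 to 136 (median 98.8) in cerebellum and fell (-2.93 and -3.06). Foxa1, a forkhead factor of dopamine precursors, was at 20.5 to 37.8 (median 30.4) in midbrain and 0 to 0.81 in cerebellum. Slc6a4, the serotonin transporter, was at 303 to 628 (median 427) in midbrain and 0 to 4.43 (median 2.24) in cerebellum. Tph2, the neuronal enzyme of serotonin synthesis, was at 384 to 801 (median 625) in midbrain and 11.4 to 27.9 (median 18.2) in cerebellum and the difference was -5.07 ± 0.16. Dbh, the enzyme that makes noradrenaline, was at 141 to 169 (median 159) in midbrain and 3.93 to 34.9 (median 5.64) in cerebellum. Htr5b, a serotonin receptor, fell by 3.93. Maoa, which degrades monoamines, was not called (0.05 ± 0.08; limma adjusted p = 0.593).

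Th, tyrosine hydroxylase, was not called with 7 pairs. It was at 512 to 755 (median 622) in midbrain and 267 to 3837 (median 377) in cerebellum, and the highest cerebellum value, 3837, belonged to animal 6. The difference was -0.28 ± 0.43 (limma adjusted p = 0.583). Without animal 6 it was -0.72 ± 0.11 (limma adjusted p = 0.000128), and the 6 remaining cerebellum libraries were at 267 to 545. The list members that rose were En2, En1 and Aldh1a1. Aldh1a1, an aldehyde dehydrogenase of a dopamine neuron subset, was 0.71 ± 0.11 higher. Lmx1a, a factor of dopamine neurons and of the roof plate, was at 0.23 ± 0.24 and not called.

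Transcription factors that pattern the midbrain and diencephalon were lower in 16 of 20 cases (background 43.3%), 14 of them at a fold of 2 or more (median -2.12). Members near 0 in cerebellum, such as Pax7, passed the filter on low values through midbrain alone, so the filter fixed their direction. Pax7, a factor of the dorsal midbrain, was at 24.7 to 76.9 (median 39.1) in midbrain and 0 to 2.95 (median 0.72) in cerebellum. Gata3, which marks GABAergic neurons of midbrain and pons, was at 128 to 196 (median 149.7) in midbrain and 0.73 to 25.4 (median 3.71) in cerebellum. Its cerebellum values split, with 17.4 to 25.4 in animals 1, 2 and 6 and 0.73 to 3.71 in the others. Otx1 fell (-3.82), Foxb1 (-3.61), Tal1 (-2.21) and Lef1 (-1.37). Otx2, the factor that defines midbrain against hindbrain in the embryo, went the other way. It was at 261 to 494 (median 384) in cerebellum and 124 to 211 (median 154) in midbrain with no overlap (difference 1.28 ± 0.13; limma adjusted p = 6.59e-06). Outside the midbrain Otx2 is also expressed in granule neurons of the posterior lobules and in the choroid plexus. Irx5 and Irx3, Iroquois factors, were 0.89 ± 0.11 and 0.58 ± 0.07 higher.

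Genes of the midbrain-hindbrain boundary split, with 5 of 11 higher (45.5%, background 28.2%) and 6 lower (54.5%, background 43.3%). Members near 0 in cerebellum, such as Gbx2, passed the filter on low values through midbrain alone, so the filter fixed their direction. En2 was at 4139 to 5732 (median 5034) in cerebellum and 169 to 338 (median 238) in midbrain, a difference of 4.42 ± 0.11. En1 was at 152 to 300.3 (median 213) in cerebellum and 109 to 213 (median 152) in midbrain with overlap, a difference of 0.49 ± 0.17 (limma adjusted p = 0.0248), and its call was lost without animal 2. Sp5, a zinc finger target of Wnt signalling, was 2.77 ± 0.23 higher. Gbx2, which in the embryo opposes Otx2 from the hindbrain side and later marks the thalamus, was at 101 to 206 (median 149) in midbrain and 0 to 6.48 (median 1.85) in cerebellum. Pax8, Sp8 and Pax5 fell (-4.62, -5.15 and -3.31), and Lmx1b, a factor of dopamine and serotonin neurons, also fell (-3.18).

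Hox genes, the positional factors of hindbrain and trunk, were read in midbrain and near 0 in cerebellum. Of 22 listed genes, 16 passed the filter on low values and all 16 were lower in cerebellum at a fold of 2 or more, with no overlap between regions (background for a fall of that size 15.4%) and a median of -5.59. A gene with RNA in 1 region only passed that filter through the region where it was high, so the count among tested members is not a count of the family. Over all 22 the summed level was 2003 to 2634 in midbrain and 12.6 to 45.7 in cerebellum. Hoxb8 was at 218 to 575 (median 384) in midbrain and 0 to 10.9 (median 1.28) in cerebellum. Hoxa5 was at 248 to 374 (median 289.7) in midbrain and 0 to 4.96 (median 0.73) in cerebellum, and Hoxc4 at 82.6 to 130.1 (median 111) in midbrain and 0 to 2.49 (median 0) in cerebellum. Hoxb3, Hoxc5 and Hoxd3 fell (-5.44, -5.81 and -5.79). In cortex the highest mean of a listed Hox gene was 2.66, for Hoxd1. Adult Hox RNA is known from medulla and spinal cord. Neighbouring Hox genes can share reads of overlapping or antisense transcripts, which cannot be told apart without strand.

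Forebrain genes were lower in cerebellum in 16 of 16 cases for cortex and hippocampus neurons (median -5.20) and in 9 of 11 for striatal projection neurons (median -2.89), against 43.3% of all genes. Members of either list near 0 in cerebellum, such as Gpr6, passed the filter on low values through midbrain alone, so the filter fixed their direction. In midbrain the cortex and hippocampus members stood at a median of 73.1% of their mean cortex level, from 44.2% for Bcl11b to 355% for Spink8, genes named only as the ends of that range. The striatal members stood at a median of 19.8% of cortex, from 14.2% for Adora2a to 30.3% for Tac1. In cerebellum the medians were 2.01% and 2.18% of cortex. Tbr1 was at 1179 to 2245 (median 2068) in midbrain and 15.2 to 38.8 (median 20.2) in cerebellum (difference -6.32 ± 0.14; limma adjusted p = 8.03e-11). Lamp5, a marker of upper-layer neurons and a class of interneurons, was at 2836 to 3744 (median 3287) in midbrain and 22.7 to 40.2 (median 29.4) in cerebellum. Fezf2, which specifies subcerebral projection neurons, was at 336 to 664 (median 543) in midbrain and 0.8 to 3.55 (median 1.29) in cerebellum. Neurod6 fell (-3.47), and Dkk3, a secreted Wnt modulator, also fell (-3.65). Of the striatal list, Drd1, the D1 dopamine receptor, and Gpr6 fell (-5.09 and -5.97). Ppp1r1b, which encodes DARPP-32, rose (0.58 ± 0.13; limma adjusted p = 0.00223), with overlapping libraries.

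Of 17 listed hypothalamic genes, 10 passed the filter on low values, and 9 of these were lower (background 43.3%). Most of the 9 were near 0 in cerebellum and passed through midbrain alone, so the filter fixed their direction and the count is not one of the list. Pmch, the precursor of melanin-concentrating hormone, was at 663 to 995 (median 805) in midbrain and 0 to 3.59 (median 1.47) in cerebellum. Hcrt, the precursor of the wakefulness peptides orexin, was at 277 to 478 (median 381) in midbrain and 0.89 to 2.16 (median 1.33) in cerebellum. Avp, vasopressin, was at 37.0 to 3965 (median 429) in midbrain and 0 to 7.45 (median 1.43) in cerebellum, a more than 100-fold range within midbrain, with animal 3 highest and animal 2 lowest. Otp, a homeodomain factor of neuroendocrine neurons, was at 46.6 to 149.6 (median 109) in midbrain and 0 to 1.29 (median 0) in cerebellum. Trh, Crh and Pomc fell (-6.64, -5.24 and -0.72). Hdc, the enzyme of histamine synthesis, rose (0.55 ± 0.10). Of the wider neuropeptide list 21 of 22 tested genes were lower, with the same limit for those near 0 in cerebellum, and Nmb was not called (-0.21 ± 0.13; limma adjusted p = 0.154). The thalamus list, 11 genes, was mixed, with 7 lower (63.6%, background 43.3%), 2 higher (18.2%, background 28.2%) and 2 not called. Its member Gbx2, near 0 in cerebellum, passed the filter on low values through midbrain alone, so the filter fixed its direction. Tnnt1 fell (-5.15) and Plekhg1 (-1.11), and Calb2, calretinin, which granule neurons and unipolar brush cells also carry, was 1.97 ± 0.11 higher. Of 14 listed pineal and pituitary genes 5 passed the filter on low values, and of these 3 were lower (background 43.3%) and 1 higher (background 28.2%). These are not counts of the list. Sag fell (-1.97) and Aanat (-0.81), both at low levels.

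**Figure D3:**
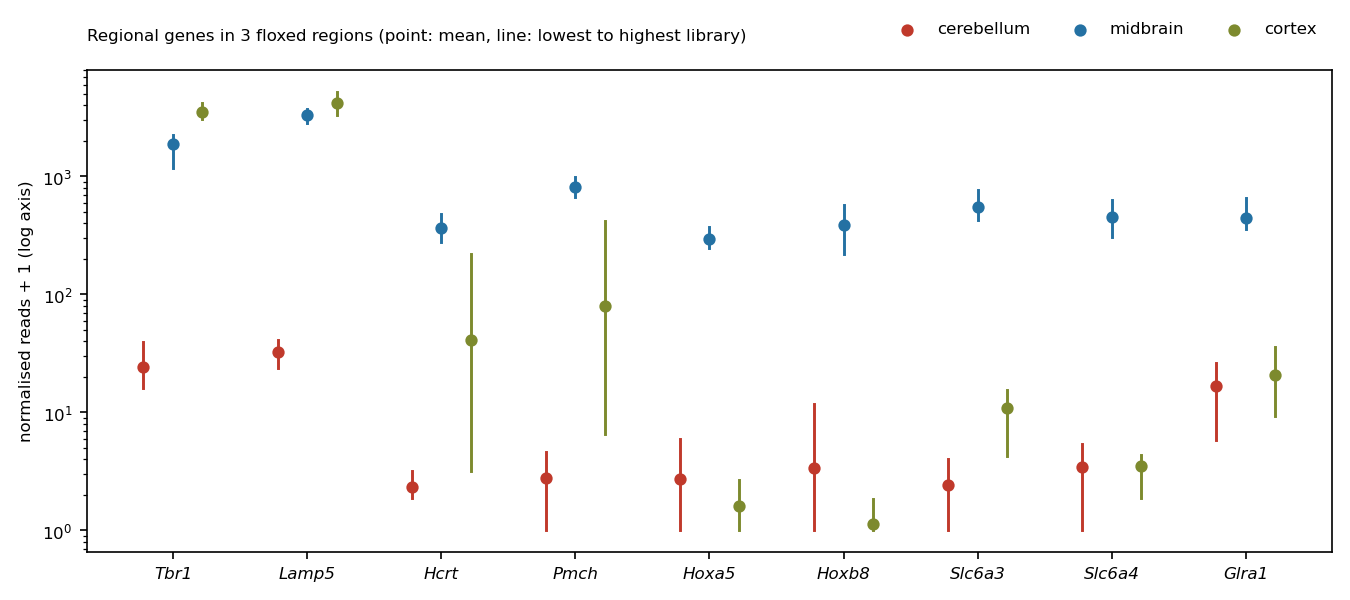
Normalised reads plus 1 (log axis) of 9 genes in floxed cerebellum (n = 7), midbrain (n = 7) and cortex (n = 6); points are means and lines run from the lowest to the highest library. Tbr1 and Lamp5 were high in midbrain and cortex, and Hoxa5, Hoxb8, Slc6a3, Slc6a4 and Glra1 were highest in midbrain, with Tbr1 at a mean of 1902 in midbrain and 3499 in cortex.

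GABA-A receptors, pentamers that carry fast inhibition, have subunit genes that differed in both directions. Only their RNA was measured. Of 15 subunit genes, 4 were higher in cerebellum (26.7%, near the background of 28.2%), 10 lower (66.7%, background 43.3%) and 1 not called. The α6 gene Gabra6 and the δ gene Gabrd, which together form the extrasynaptic receptors of granule neurons, rose by 7.07 ± 0.59 and 2.23 ± 0.07. Gabrd was at 3942 to 6129 (median 4895) in cerebellum and 914 to 1179 (median 1068) in midbrain. Gabrb2, the β2 subunit of synaptic receptors, rose by 0.34 ± 0.08, and its libraries overlapped. Gabra5, the α5 subunit of hippocampal extrasynaptic receptors, fell furthest and was at 1580.0 to 1987 (median 1747) in midbrain and 17.5 to 66.0 (median 27.5) in cerebellum (-5.76 ± 0.21). Gabra3 fell (-3.30), Gabra4 (-1.64) and Gabra2 (-1.28). The β gene Gabrb1 fell (-0.88), and the γ genes Gabrg1 and Gabrg3 (-1.20 and -3.61). Gabrq and Gabre, which encode θ and ε subunits found in monoamine neurons and hypothalamus, fell (-5.20 and -3.60). Both were low in cerebellum, at 0.82 to 30.2 (median 8.77) and 0.7 to 7.54 (median 4.53). Gabre passed the filter on low values through midbrain alone, so the filter fixed its direction.

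Cerebellins are secreted C1q-family proteins that bridge presynaptic neurexins and postsynaptic δ glutamate receptors. Cbln1 and Cbln3 rose, and Cbln2 and Cbln4 fell. Cbln1 was at 24227 to 39006 (median 29100.1) in cerebellum and 1260.3 to 2606 (median 1529) in midbrain. Cbln2 was at 549 to 818 (median 758) in midbrain and 1.66 to 166 (median 9.89) in cerebellum and the difference was -5.00 ± 0.87. Its error was the widest of the family, and the cerebella of animals 1, 2 and 6 held 61.3, 127 and 166 against at most 9.89 in the others. Cbln4 was at 548 to 736 (median 712) in midbrain and 11.1 to 57.0 (median 22.4) in cerebellum. Grid1, a δ receptor gene of forebrain, was at 1209.9 to 1707 (median 1507) in midbrain and 277 to 560.3 (median 491) in cerebellum (-1.74 ± 0.13). The neurexin genes Nrxn2 and Nrxn3 rose by 0.22 and 0.53. C1ql1, the climbing fibre ligand, is made by inferior olive neurons in the medulla and by oligodendrocyte precursors, and it was at 531 to 749 (median 663) in midbrain and 124 to 181 (median 152) in cerebellum (-2.09 ± 0.09). Its receptor gene Adgrb3 was at -0.03 ± 0.10 and not called, with the sign reversed under both other scalings and without animal 6. C1ql2, C1ql3 and C1ql4 fell (-5.23, -3.04 and -4.74). C1ql4, near 0 in cerebellum, passed the filter on low values through midbrain alone, so the filter fixed its direction.

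**Figure D4:**
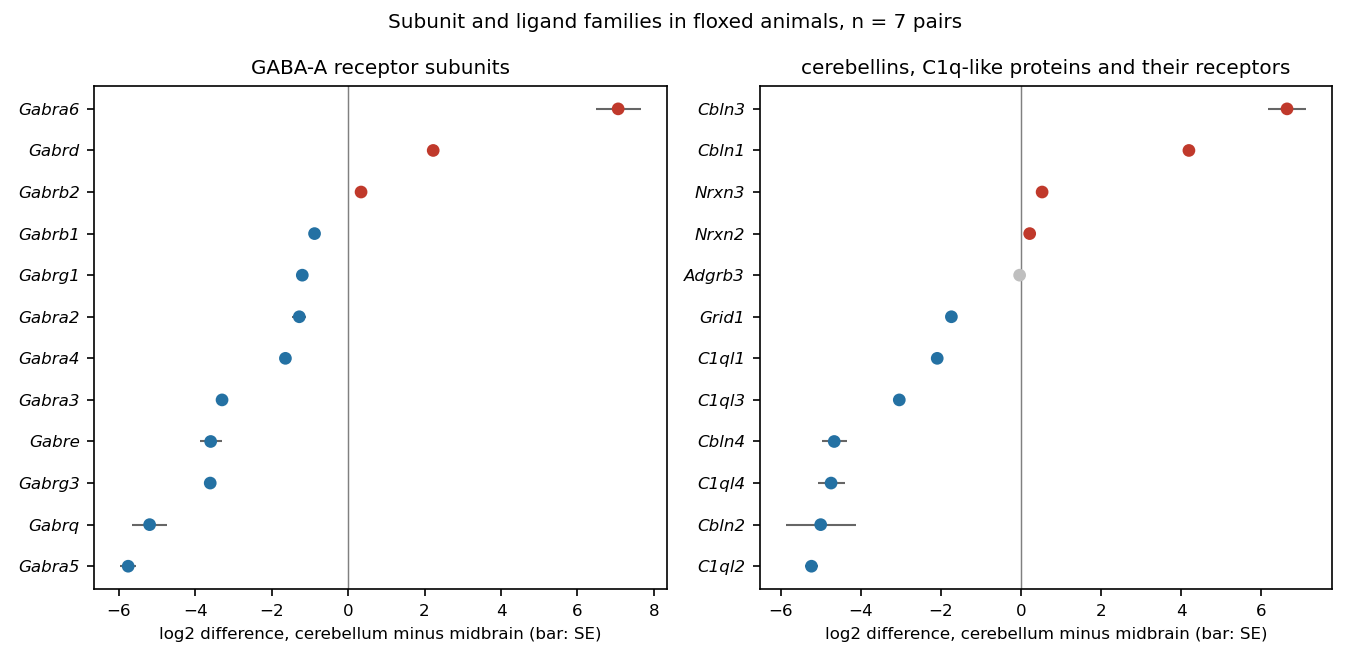
Log2 difference in normalised reads plus 1, cerebellum minus midbrain, with its standard error (bar, n = 7 pairs) for genes of 2 families named in the text; red is higher, blue lower and grey not called. In the GABA-A family Gabra6 (7.07) and Gabra5 (-5.76) lie at the ends, and in the cerebellin family Cbln3 (6.64) and C1ql2 (-5.23).

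Ionotropic glutamate receptor genes were higher in 5 of 18 cases (27.8%), near the background of 28.2%, and lower in 10 (55.6%, background 43.3%). NMDA receptor subunits went opposite ways. Grin2c, the subunit of mature granule neurons, was at 12943 to 23752 (median 17248) in cerebellum and 1514 to 2494 (median 2112) in midbrain (3.01 ± 0.13), and Grin2b, the forebrain subunit, at 7783 to 10671 (median 9742) in midbrain and 359 to 734 (median 578) in cerebellum (-4.07 ± 0.09). Grin2a fell (-1.38), Grin3a (-1.24), and Grin3b was not called (0.20 ± 0.15). Gria4, an AMPA subunit of Bergmann glia and granule neurons, was 1.70 ± 0.17 higher. Gria1, an AMPA subunit of Bergmann glia and of forebrain neurons, was at 0.12 ± 0.15 (limma adjusted p = 0.497) and at 0.27 ± 0.07 without animal 6 (limma adjusted p = 0.00452). The kainate receptor genes Grik2 and Grik1 were 0.76 ± 0.05 and 0.57 ± 0.10 higher, Grik5 fell by 1.28 and Grik3 was not called (-0.29 ± 0.13). Of 6 tested genes of glycine receptors and transporters 5 were lower (83.3%, background 43.3%). Glra3, near 0 in cerebellum, passed the filter on low values through midbrain alone, so the filter fixed its direction. Glra1, the adult α1 subunit of brainstem and spinal cord, was at 360.4 to 656 (median 401) in midbrain and 4.83 to 25.1 (median 14.6) in cerebellum, Glra2 and Glra3 fell (-2.68 and -4.45), and Glrb fell (-0.27), a call lost with libraries scaled to totals. Slc6a9, the glial glycine transporter, was not called (-0.08 ± 0.07).

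Of 17 genes of transmitter synthesis and packaging, 11 were lower in cerebellum (64.7%, background 43.3%) and 3 higher (17.6%, background 28.2%). Members near 0 in cerebellum, such as Chat, passed the filter on low values through midbrain alone, so the filter fixed their direction. Cholinergic genes were close to 0 in cerebellum: Chat, the enzyme of acetylcholine synthesis, was at 137 to 252 (median 153) in midbrain and 0 to 2.14 (median 0.7) in cerebellum, and Slc18a3 and Slc5a7 fell (-6.92 and -5.54). Slc17a6, the vesicular glutamate transporter of subcortical neurons, was at 2578 to 4023 (median 2693) in midbrain and 155 to 713 (median 223) in cerebellum (-3.19 ± 0.31), with the highest midbrain value in animal 1. Slc17a8, which serves a subset of serotonin and other neurons, fell by 5.08. The GABA genes went different ways. Gad1, the main GABA-synthesising enzyme, was at 7066 to 15328 (median 12635) in cerebellum and 7339 to 9032 (median 7748) in midbrain and rose by 0.57 ± 0.11, whereas Gad2 was at 3570.3 to 6000.4 (median 4320.4) in midbrain and 1927 to 3559.9 (median 2614) in cerebellum and fell by 0.79. Slc32a1, the vesicular GABA transporter, was at 0.04 ± 0.09 and was not called. Without animal 6 Slc32a1 was at 0.14 ± 0.06 (limma adjusted p = 0.0429). Nos1, the neuronal nitric oxide synthase, was 0.50 ± 0.20 higher (limma adjusted p = 0.0469), and this call was kept without animal 6 and lost without any other animal.

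Voltage-gated channel genes were higher in 11 of 34 cases (32.4%, background 28.2%) and lower in 20 (58.8%, background 43.3%). Cacna1g, a T-type calcium channel, rose by 1.56 ± 0.09, and Cacna1a, the P/Q-type channel, by 1.50 ± 0.05. Kcnd2 and Kcnc1 rose by 1.21 ± 0.09 and 1.08 ± 0.08. Scn3b, a sodium channel β subunit, was at 2582 to 3327 (median 2957) in midbrain and 67.9 to 154 (median 85.5) in cerebellum, and Kcnq5, an M-current channel, at 1265 to 1741 (median 1543) in midbrain and 35.0 to 75.3 (median 47.5) in cerebellum. Scn3a and Kcnq3 fell (-3.85 and -3.01), and Cacna1b, the N-type channel, also fell (-1.07).

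Immediate early genes, which neuronal activity induces within minutes, were lower in 8 of 11 cases (72.7%, background 43.3%). Egr3 was at 1563 to 2552 (median 2087) in midbrain and 13.5 to 48.0 (median 27.1) in cerebellum and Arc at 1383 to 7269.6 (median 6119) in midbrain and 470.3 to 678 (median 599.5) in cerebellum. Junb, Fosb and Npas4 fell (-2.13, -2.51 and -1.92). Ier2 and Dusp1 rose by 1.18 ± 0.11 and 0.61 ± 0.08. Fos varied far more between animals than between regions. It was at 186 to 2518 (median 1492) in cerebellum and 164 to 1643 (median 1342) in midbrain, and it was higher in cerebellum in 7 of 7 pairs by 0.32 ± 0.08 (limma adjusted p = 0.00312). When the pairing by animal was ignored the call was lost (limma adjusted p = 0.675). The lowest value in both regions came from animal 6, at 186 and 164.

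Glial genes differed by class. In bulk tissue fewer cells of a type and less RNA per cell cannot be told apart. Bergmann glia genes were higher in 12 of 14 cases (background 28.2%), 9 at a fold of 2 or more (median 1.68). Gdf10, a TGF-β family ligand, was at 465 to 7722 (median 6218) in cerebellum and 159 to 412 (median 274) in midbrain. The low end of cerebellum was animal 6 alone, and the other 6 libraries were at 5702 to 7722. Slc1a3, the glutamate transporter GLAST, was at 14709 to 36801 (median 31303) in cerebellum and 10679 to 14167 (median 11919.9) in midbrain (1.23 ± 0.15). A2m, a protease inhibitor, Timp4, Vim, an intermediate filament, Hopx and Tnc, a matrix protein, rose by 2.88 ± 0.09, 2.01 ± 0.07, 2.35 ± 0.07, 1.95 ± 0.13 and 1.66 ± 0.18. Npy, which encodes neuropeptide Y and is also expressed by forebrain interneurons, fell by 1.74. Of 24 genes of the astrocyte list, which also holds Slc1a3, 8 were higher (33.3%) and 9 lower (37.5%), shares near those of all genes (28.2% and 43.3%). Slc1a2, the transporter GLT-1 that dominates in forebrain, was at 39358 to 59001 (median 45146) in midbrain and 9671 to 16431 (median 14016) in cerebellum (-1.76 ± 0.09), opposite to Slc1a3. Slc6a11, the GABA transporter GAT-3, was at 8342 to 15573 (median 10334) in midbrain and 1057 to 2339.5 (median 1620.2) in cerebellum, and Ppp1r3g, a glycogen-targeting subunit, fell by 3.24. Glul, glutamine synthetase, fell (-0.95) and Kcnj10, the potassium channel Kir4.1, also fell (-0.84). Aldoc, S100b, Slc4a4 and Aqp4 rose by 0.78 ± 0.08, 1.07 ± 0.10, 0.82 ± 0.10 and 0.76 ± 0.10. The other 7 astrocyte genes did not pass.

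Oligodendrocyte RNA was lower in cerebellum. Of 20 myelin and oligodendrocyte genes 19 were lower (median -1.09), and of 11 precursor genes 11 were lower (median -1.41), against 43.3% of all genes. Mbp, myelin basic protein, was at 119220.0 to 231358 (median 205627) in midbrain and 63508 to 115094 (median 103568) in cerebellum (-0.96 ± 0.05; limma adjusted p = 1.14e-08). Mal, Opalin, Cldn11 and Mobp, other myelin genes, fell (-1.60, -1.57, -1.26 and -1.22). Sox10, the lineage factor, fell by 1.42. The precursor genes Olig1, Olig2, Gpr17 and Cspg4 fell (-1.54, -1.60, -1.75 and -1.23). Klk6, a protease of mature oligodendrocytes, was not called (-0.19 ± 0.14) and was at -0.35 ± 0.06 without animal 6, where it passed. Microglia genes were lower in 13 of 16 cases (background 43.3%), 10 at a fold of 2 or more, and in 16 of 16 without animal 6. P2ry12 was at 397 to 647 (median 430.4) in midbrain and 112 to 283 (median 143) in cerebellum, Cx3cr1 at 845 to 1233 (median 887) in midbrain and 234 to 829 (median 256) in cerebellum and Sall1 at 548 to 931 (median 681) in midbrain and 149 to 354 (median 179) in cerebellum. Selplg and Gpr34 fell (-1.31 and -1.30). The members not called with 7 pairs were C1qa, C1qb and C1qc, at -0.74 ± 0.38, -0.83 ± 0.35 and -0.79 ± 0.34. Without animal 6 they were at -1.13 ± 0.09, -1.19 ± 0.08 and -1.14 ± 0.08 and passed.

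Few vascular and meningeal genes passed. Of 13 endothelial genes 3 were higher and 2 lower, of 10 mural genes 1 was higher and 2 lower, and of 11 meningeal fibroblast genes 4 were higher. Of all genes tested, 28.2% were higher and 43.3% lower. With libraries scaled to totals the counts were 5 and 1 in endothelium, 3 higher mural genes with the falls lost, and 7 higher fibroblast genes. Mfsd2a, the lipid transporter of the blood-brain barrier, was at 384 to 815 (median 633) in midbrain and 131 to 305 (median 229.5) in cerebellum with no overlap (-1.44 ± 0.09). Slc2a1, the endothelial glucose transporter, fell by 0.32, a call lost with libraries scaled to totals. Ly6c1 and Slco1a4 rose by 0.51 ± 0.10 and 0.44 ± 0.15, the latter with its call lost without animal 1 or animal 7, and the other 8 endothelial genes did not pass. Pdgfrb and Notch3, pericyte and smooth muscle receptors, fell (-0.29 and -0.36), and Vtn rose by 0.18 ± 0.06. Igf2, a growth factor of meninges and choroid plexus, was at 3137 to 4042 (median 3361) in cerebellum and 2291 to 2587 (median 2401) in midbrain (0.51 ± 0.06). Col1a2, Col3a1 and Lum rose by 0.51 ± 0.06, 0.48 ± 0.17 and 0.68 ± 0.22, with the call of Col3a1 lost without animal 1, and the other 7 fibroblast genes did not pass.

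Choroid plexus, the epithelium that makes cerebrospinal fluid, varied widely between libraries. Ttr, transthyretin, was at 659 to 65480.4 (median 36408) in cerebellum and 14402 to 33115 (median 18231) in midbrain, and the lowest cerebellum library was animal 4 at 659 against 22194 to 65480 in the other 6. The difference was 0.11 ± 0.87 (limma adjusted p = 0.921). Of 13 choroid genes 2 were called higher (15.4%, background 28.2%), 1 lower (7.69%, background 43.3%) and 10 not called. Without animal 4, 11 were higher. Clic6 and Slc4a5 were the rises (0.97 ± 0.28 and 1.10 ± 0.35), and Prlr, the prolactin receptor, fell by 1.58. Without animal 6 these calls were lost (limma adjusted p of 0.0569, 0.0778 and 0.0897), and that of Slc4a5 was also lost without animal 2, 5 or 7 and that of Prlr without animal 1, 2, 3 or 5. Ependymal genes, most of them of motile cilia, were lower in 4 of 9 cases (44.4%), near the background of 43.3%, and with libraries scaled to totals 2 others were higher. Rsph1, Ccdc153, Tmem212 and Ak7 fell (-0.98, -0.98, -0.95 and -0.85). Interferon response genes were higher in 5 of 13 cases (38.5%, background 28.2%): Oas2, Usp18, Ifit3, Bst2 and Oas1a, by 0.92 ± 0.28, 0.89 ± 0.30, 0.88 ± 0.29, 0.83 ± 0.27 and 0.78 ± 0.28. Of these, Ifit3 was highest in the cerebellum of animal 3 and the other 4 in that of animal 6. The calls of Bst2, Oas1a and Usp18 were lost without animal 3, and that of Ifit3 without animal 2 or animal 6. The count was 2 without animal 3 and 4 without animal 6, with Ifi27 called lower, and 10 with libraries scaled to totals or by median ratio. Oasl2 was at 0.29 ± 0.36 and was not called, and its sign reversed without animal 6.

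The cerebellum of animal 6 departed from the other 6 floxed cerebella in the direction of the cKO cerebella. Yy1, the gene floxed in this series, was at 585 there, at 881 to 1348 in the other floxed cerebella and at 499 to 683 in the 7 cKO cerebella. Gfap, the astrocyte filament gene, was at 25729, against 4241 to 4786 in the others and 15071 to 63053 in the cKO. Gdf10 was at 465, C1qa, a complement gene of microglia, at 3280.4 and Oasl2, an interferon-induced gene, at 1137. All of these lay outside the range of the other floxed cerebella and inside that of the cKO cerebella. Its library total, 22.1 M normalised reads, was the lowest of the 7, and its estimated depth, 69.5 M reads, the highest. In the midbrain of the same animal Gfap was at 10368, within the 9068 to 11059 of the other midbrain libraries, and C1qa at 1077, within 1005 to 1406. Other genes lay outside there. Gdf10 was at 159 against 236 to 412 and A2m at 128 against 198 to 359. Bst2 was at 161 against 91.9 to 116, Oasl2 at 232 against 91.1 to 154 and Col3a1 at 455 against 155 to 214.

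A gene read in every library ties the samples numbered 6 together. Itm2a, a membrane protein gene on the X chromosome that is expressed in endothelium, was at 2.72 in cerebellum 6, 1.79 in midbrain 6 and 1.28 in cortex 6. It was at 822 to 1373 in the other 17 floxed libraries and at 799 to 1734 in 19 cKO libraries. It was singled out after its values were seen. Fos was at 165 in cortex 6, below the 756 to 2518 of the other floxed libraries, and cKO libraries also reached that low, with a range of 141 to 1457. The 3 libraries numbered 6 were the only ones of these 39 under 799 for Itm2a. What gave cerebellum 6 its other values was not tested.

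**Figure D5:**
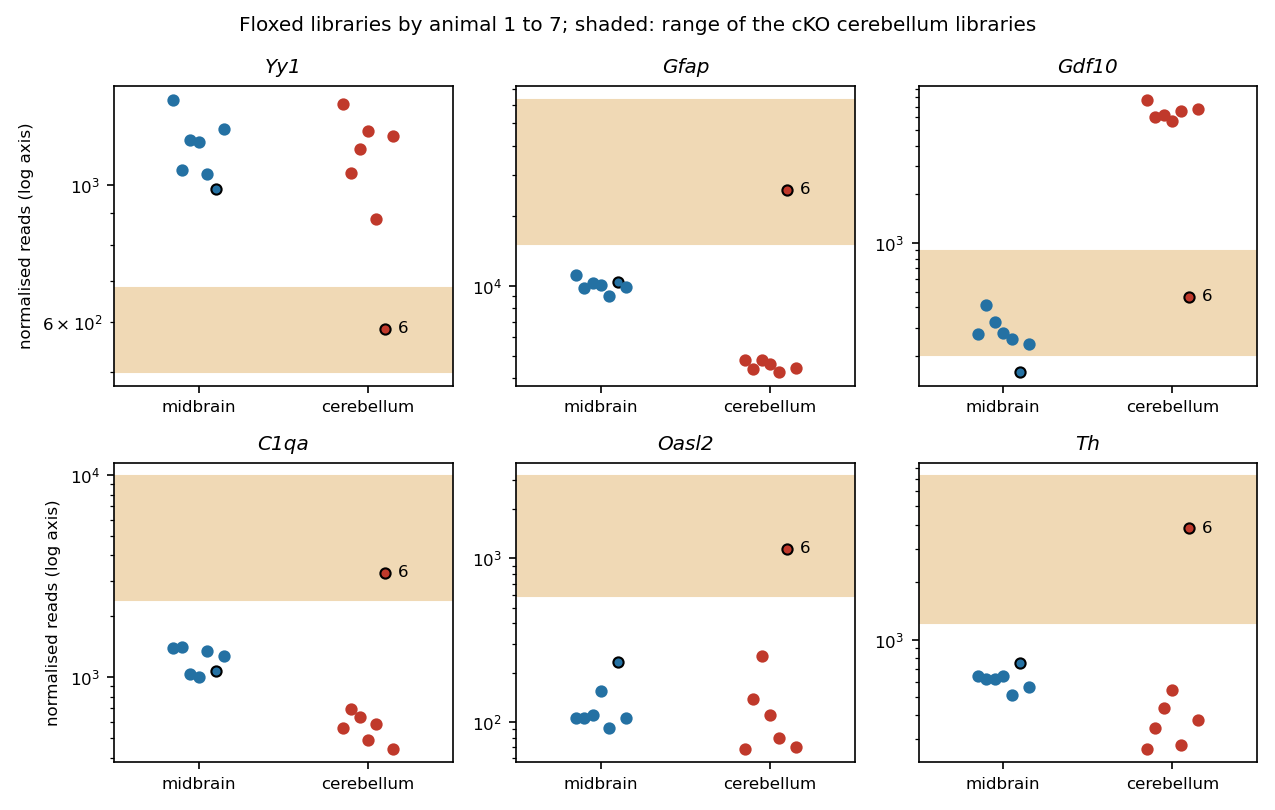
Normalised reads (log axis) of 6 genes in the floxed midbrain and cerebellum libraries, with the points of each region set out by animal 1 to 7 and animal 6 ringed in black; the shaded band runs from the lowest to the highest of the 7 cKO cerebellum libraries. Cerebellum 6 lies inside the band in all 6 genes and the other 6 floxed cerebella outside it, for example Gfap at 25729 against 4241 to 4786.

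Leaving animal 6 out moved some results and left most in place. Gfap was -0.79 ± 0.33 with 7 pairs (limma adjusted p = 0.0658) and -1.14 ± 0.04 with 6 (limma adjusted p = 2.4e-10). C1qa was at -0.74 ± 0.38 (limma adjusted p = 0.121) and at -1.13 ± 0.09 (limma adjusted p = 3.1e-07). Oasl2 changed sign, from 0.29 ± 0.36 to -0.05 ± 0.22. Yy1 itself did not pass in either, at -0.15 ± 0.09 and -0.05 ± 0.05, and the first changed sign with libraries scaled to totals. Bergmann glia genes rose in 13 of 14 cases without it in place of 12, and Gdf10 stood at 4.47 ± 0.12 in place of 4.05 ± 0.42. The Purkinje and granule counts were the same with 6 pairs.

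The cKO animals, which are separate mice, gave the same regional comparison with Yy1 deleted, by design, in cells that express Cre. Of 15814 genes tested there, 10208 passed (64.6%), 4349 higher in cerebellum (27.5%) and 5859 lower (37.0%). Calls of at least 2-fold made up 9.38% of tests for rises and 15.8% for falls there. Of the 923 genes called higher at a fold of 2 or more in floxed animals and tested in cKO, 874 (94.7%) were also called higher. Of 2360 called lower, 2062 (87.4%) were also called lower. The granule list gave 24 of 27 higher and the Purkinje list 22 of 24. Pcp2 differed by 8.77 ± 0.76, Gabra6 by 8.01 ± 0.69, Slc6a3 by -6.97 ± 0.39 and Tbr1 by -7.04 ± 0.17. Glial lists gave other values: 8 of 14 Bergmann genes were higher and 3 lower, and 12 of 20 myelin genes were lower. Gdf10 differed by 1.85 ± 0.20, Mbp by -0.07 ± 0.26, Slc1a3 by 0.11 ± 0.13 and Th by 2.50 ± 0.23. The difference between genotypes was not tested for these genes.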

How the data were processed

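Polyadenylated RNA of each tissue was sequenced with paired-end reads, per the labels' protocols, using a kit that does not mark strand. Tools given in the submitters' processing notes, with no version or setting, are DESeq2, Salmon and STAR, and the build given is mm10. The deposited table of 41 libraries holds 24972 named entries in a signal unit: read values that the authors had already normalised, since they are not whole and 86.8% of 75740 low values lay within 0.1 of a whole multiple of 1 step per library. Whole reads could not be recovered for nearly all genes, so no count test was run. Each library's step gave its estimated reads. 26 entries whose names had turned into dates, at most 0.351% of a library, were left out, and 24420 of the remaining 24946 names (97.9%) matched 1 gene of GENCODE M21.

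Values were tested with limma 3.58.1 in R 4.3.3 on log2(value + 1), with mean-variance trend, robust estimates and the animal as a block, for genes at 10 or more in at least 7 of the 14 libraries. P-values were adjusted by Benjamini-Hochberg over all 15546 genes. For a gene near 0 in 1 tissue the size depends on the pseudocount. Libraries of the same number deviated together, with correlations of 0.106 to 0.304, each above 0.1, and 6 of 7 matched their own number best, while animal 5 matched animal 2 best. The highest correlation between any pair of the 14 libraries was 0.995. The fit was tested on simulated data with known changes. It found 98% of 100 genes changed 2-fold and 85.9% of 99 changed 1.5-fold, among 15489 genes. Of its calls, 7.11% were genes that had not changed. Far fewer genes changed there than were called here, so the simulation does not give the error rate of these calls.

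Genes named were the 12 largest changes each way with a mean of 100 or more in the higher tissue and the same sign in every pair, up to 5 called members each way and up to 3 uncalled members per list, a set of anchors, and any gene of the GABA-A, cerebellin and transmitter lists. Genes outside that rule are the cell type markers Car8, Gdf10 and Gata3, genes with a promoter shown, and those said to be singled out. Some genes that met the rule are not reported here. The comparison and the lists were chosen with earlier results of these data known. Scaling, pseudocount, filter, pairing, sex, weights, depth and each animal were varied. 2 libraries whose title and tissue labels differ entered no comparison. Depth differs between libraries but each gene's precision is taken from the spread between animals.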

Additional observations from a re-analysis of the deposited data

Results flagged for a closer look

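In each region the highest and the lowest of the 7 libraries were compared with the nearest other library for every gene named except Ddx3y. A library was marked where that gap exceeded the Dixon 95% limit. The rule marked 79 of 482 groups of 7 values, or 16.4%, where chance marks about 1 in 20, and 38 of the marks fell on the cerebellum of animal 6 and 18 on the midbrain of animal 1. Values are normalised reads.

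The cerebellum of animal 6 was the highest of its region in 8 microglia genes, C1qa at 3280.4, C1qb at 2548, C1qc at 2639, Cx3cr1 at 829, Gpr34 at 145, P2ry12 at 283, Sall1 at 354 and Selplg at 389. It was also highest in 5 interferon response genes, Bst2 at 989.8, Ifi27 at 1894, Oas1a at 258, Oasl2 at 1137 and Usp18 at 314. The other genes in which it stood highest were Cbln3 at 40883, Col3a1 at 1429, Gfap at 25729, Hoxb8 at 10.9, Klk6 at 1303, Lum at 234, Nrxn2 at 21326, Pomc at 175 and Th at 3837. It was lowest in genes of Bergmann glia and astrocytes, A2m at 728, Gdf10 at 465, Gria1 at 5616, Gria4 at 3569, Hopx at 2676, S100b at 6120.3 and Timp4 at 3112. The other genes in which it stood lowest were Aldh1a1 at 4163, Homer3 at 11013, Itm2a at 2.72, Kcnc1 at 11602, Nos1 at 1171, Slc32a1 at 4041 and Sorcs3 at 213. Its library total was 22.1 M normalised reads, the lowest, and its estimated depth was 69.5 M reads, the highest. What gave this library its values was not tested.

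The midbrain of animal 1 was the highest of its region in neuronal genes and patterning factors, Gad2 at 6000.4, Gria4 at 3085, Irx3 at 322, Scn3a at 1336, Slc17a6 at 4023, Slc5a7 at 504, Slc6a5 at 737 and Sp8 at 94.4. It was highest in glial and choroid genes as well, Cx3cr1 at 1233, P2ry12 at 647, Sall1 at 931, Slc1a2 at 59001, Slc4a4 at 7699, Slc4a5 at 239, Slc6a11 at 15573 and Slc6a9 at 4799.9. It was lowest in Grik5 at 7102 and Slc17a7 at 20837. The same library held the least Pcp2, Gabra6, Cbln3 and Fat2 of the 7 midbrain libraries.

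The midbrain of animal 6 was the highest in Bst2 at 161, Cbln1 at 2606, Cbln3 at 1589, Col3a1 at 455, Fat2 at 829.6, Otx1 at 179 and Sp5 at 46.7. It was the lowest in Itm2a at 1.79, the gene that was also nearly absent from the cerebellum and cortex of that animal. Animal 7 was highest in Xist, at 17251 in cerebellum and 12258 in midbrain.

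Other marks were scattered over single libraries. Dbh at 34.9 stood highest in the cerebellum of animal 2. Fezf2 at 3.55 stood highest in the cerebellum of animal 4. Lef1 at 207 stood highest in the cerebellum of animal 5. Kcnq3 at 40.8 stood lowest in the cerebellum of animal 5. Foxa1 at 0.81 stood highest in the cerebellum of animal 7. Grin3b at 106, Hoxa5 at 374 and Ly6c1 at 910.1 stood highest in the midbrain of animal 2. Gpr6 at 48.8 and Grik2 at 1107 stood lowest in the midbrain of animal 2. Avp at 3965 stood highest in the midbrain of animal 3. Zic4 at 132 stood lowest in the midbrain of animal 7. The midbrain of animal 5 was the highest of its region in estimated depth, at 48.4 M reads.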

How the results depend on the processing

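The total of 11127 called genes was 10569 with no replicate block, and from 10539 to 11281 when each animal was left out in turn. With libraries scaled to totals 6442 genes were higher and 4980 lower, and scaled by median ratio 5643 and 5641, so the split by direction of small differences rests on the scaling. Over 19 alternatives, 201 of 239 named genes, Ddx3y not among them, kept their sign and their side of the threshold in all. Of 4518 gene values 60 lost a call, 34 gained one and 27 changed sign. Of 1311 counts 56 moved by more than 1.5 times. Ignoring the pairing by animal ended the calls of Fos (no replicate block, limma adjusted p = 0.675), Itm2a, Dusp1, Col3a1, Nos1, Vtn, Prlr, Bst2, Oas1a and Usp18 and of no other of the 239 genes.

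The counts that moved were in small or mixed lists. The choroid plexus count of 1 lower became 0 scaled to totals, by median ratio, with no replicate block with or without labelled sex, with array weights, with estimated reads as covariate and without animals 5 and 6, and its count of 2 higher became 0 with array weights and without animals 5 and 6. Leaving out 1 animal gave 0 to 11 higher and 0 to 1 lower. The interferon count of 5 higher became 2 under a filter of 50, 10 under both scalings and 2 with no replicate block with or without labelled sex. It became 9 with estimated reads as covariate, and 2 to 8 when 1 animal was left out. Its lower count became 1 with array weights and without animals 5 and 6, and was 0 to 1 when 1 animal was left out. Scaling to totals gave 5 higher and 1 lower endothelial genes, 3 higher and 0 lower mural genes, 7 higher fibroblast genes, 2 higher ependymal genes, 5 higher transmitter genes and 1 higher serotonin or noradrenaline gene. Median-ratio scaling gave 2 mural, 7 fibroblast and 1 ependymal gene higher. Without animals 5 and 6, 1 serotonin or noradrenaline gene was higher, and the mural count became 0, as it did with no replicate block, which also left 1 immediate early gene higher. Leaving out 1 animal gave 2 to 5 transmitter genes higher, 0 to 1 fibroblast gene lower and 0 to 1 pineal or pituitary gene higher. A filter of 50 left 1 boundary gene and 1 pineal or pituitary gene lower and 0 of the latter higher. Array weights also left 0 pineal or pituitary genes higher. With no filter, 15 hypothalamic genes were lower and 2 pineal or pituitary genes higher. Fewer or more genes pass these filters by construction, and the cause of the other shifts was not tested.

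The sign changes were all in genes that were not called with 7 pairs. Adgrb3 was at 0.148 scaled to totals, 0.0746 by median ratio, 0.0443 with weights and 0.117 without animals 5 and 6, and from -0.0866 to 0.0667 when 1 animal was left out. Lypd6 was at 0.0952, 0.0221, 0.141 and 0.241 under both scalings, with weights and without animals 5 and 6, and from -0.186 to 0.201 when 1 animal was left out. Slc6a9 was at 0.102 and 0.0284 under both scalings, Ifi27 at 0.0182 and Yy1 at 0.0287 scaled to totals. Oasl2 was at -0.0355 with weights, -0.0152 without animals 5 and 6, and from -0.046 to 0.438 when 1 animal was left out. Ttr was at -0.554 with weights, -0.225 without animals 5 and 6, and from -0.205 to 0.968 when 1 animal was left out. Slc32a1 was from -0.0162 to 0.141 and Xist from -0.14 to 0.491 when 1 animal was left out, and Xist was at -0.0311 without animals 5 and 6.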
